A study of Mus musculus with 18 samples.

Results

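The nuclear genes for the subunits of the mitochondrial respiratory chain and ATP synthase were followed in mouse CD4+ T cells before and after activation at graded antigen dose. Members were taken by name, as every gene of the table whose name starts with Nduf, Uqcr, Cox4, Cox5, Cox6, Cox7, Cox8 or Atp5, together with Sdha, Sdhb, Sdhc, Sdhd and Cyc1, and without names that contain -ps, the mark of a pseudogene. This gave 93 of 15698 named genes. By complex they are 46 genes of complex I, 4 of complex II, 9 of complex III, 17 of complex IV and 17 of complex V, the ATP synthase. The name rule also takes in 8 assembly factors of complex I, which build the complex without staying in it. Ndufa4 was placed with complex IV, where its product is found.

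The T cells carried the transgenic 5C.C7 receptor, which recognises a peptide of pigeon cytochrome c, and came from spleen and lymph node. Naive CD4+ T cells were compared with T cells kept 4 days with peptide-loaded P13.9 cells. P13.9 is a line of fibroblasts that presents the antigen, here the peptide pPCC at 0.01, 0.1, 1.0 or 10 µM. P13.9 cells alone formed the sixth group, and each group had 3 libraries of 3′ RNA sequencing. The study asked how the strength of the receptor signal shapes CD4+ T cell differentiation. Whether a group's libraries stem from different mice or cultures is not stated, so p-values measure the spread between these libraries, which may be technical.

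Complex I takes electrons from NADH and complex II, the succinate dehydrogenase of the citric acid cycle, takes them from succinate. Complex III passes them to cytochrome c and complex IV passes them to oxygen, and the proton gradient built on the way drives ATP synthase. The mitochondrial genome encodes a small set of core subunits, and all other subunits are encoded in the nucleus. Naive T cells are small and metabolically quiet, and after activation T cells grow, divide and make more mitochondrial mass while glycolysis also rises.

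Values are the authors' normalized counts, and levels of a gene are compared between libraries, not with other genes. Naive libraries held 27789 to 97757 recovered reads in named genes, activated libraries 156941 to 733009 and P13.9 libraries 201627 to 352001. Naive libraries also stood apart in their correlation over genes between replicates (0.601 to 0.765, against at least 0.90 within the other groups) and in reads of unnamed features (12.4% to 15.6%, against at most 5.36%). The part of these in the differences from naive cells was not tested. In naive cells 1 read was worth a value of 2.17 to 6.55, and 74 to 85 of the 93 members had a read, against 91 to 93 in every other library. All 8 T cell markers were detected in naive and activated cells, where their summed values ran from 228 to 445, and the sum was 4.0 to 8.7 in P13.9. Fibroblast markers summed to 680 to 790 in P13.9. In naive cells S100a8 and S100a9, neutrophil genes, summed to 708 to 964 and 7 myeloid markers to 85.2 to 126, against at most 47.9 and 10.7 in any activated library. The lists for B cells were not analysed here. These other cells' part in the differences from naive cells was not tested. In such bulk samples fewer cells of a type and less RNA per cell cannot be told apart.

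The promoters of the members are shown first because NRF1 and GABPA (also called NRF2 alpha), the factors classically tied to respiratory chain genes, bind short motifs in them. For the 250 bases before the gene's start, RefSeq sequences of GRCm38.p6 were at hand for 80 promoters of 75 members. The letters searched were GCGCA, any base and GCGC in a row for NRF1, and CCGGAAG for GABPA, on both strands. At least 1 of the motifs was found in 26 of the 80 promoters (32.5%), against 10.1% of all 32851 promoters and 13.4% of the 21263 promoters of protein-coding genes, a description with no test. NRF1 letters were in 15 member promoters (18.8%, against 3.74% of all) and GABPA letters in 14 (17.5%, against 6.91%). Among promoters of members that rose on activation 27.5% of 51 held a motif, and among those of members not called 33.3% of 21 did. The printed promoters belong to the members with a motif that had the largest rise and the largest fall between naive and activated cells. Each is given 5′ to 3′ on the gene's strand, with the motif, on either strand, in capitals.
Uqcr11: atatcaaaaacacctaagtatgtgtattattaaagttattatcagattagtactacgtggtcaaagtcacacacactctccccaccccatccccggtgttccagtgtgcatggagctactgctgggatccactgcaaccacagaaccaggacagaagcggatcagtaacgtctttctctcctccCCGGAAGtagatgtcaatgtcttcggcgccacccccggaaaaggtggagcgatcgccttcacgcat
Ndufb4: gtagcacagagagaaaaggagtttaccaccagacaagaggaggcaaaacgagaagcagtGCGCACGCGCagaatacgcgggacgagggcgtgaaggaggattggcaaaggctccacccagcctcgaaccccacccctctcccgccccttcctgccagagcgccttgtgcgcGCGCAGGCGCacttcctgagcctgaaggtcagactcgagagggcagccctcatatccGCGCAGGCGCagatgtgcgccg
Atp5l: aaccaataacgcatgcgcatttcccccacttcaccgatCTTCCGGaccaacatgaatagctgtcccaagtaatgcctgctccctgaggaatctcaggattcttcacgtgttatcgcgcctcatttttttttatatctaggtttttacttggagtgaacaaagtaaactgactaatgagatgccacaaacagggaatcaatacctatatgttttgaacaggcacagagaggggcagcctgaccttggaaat
Ndufaf4: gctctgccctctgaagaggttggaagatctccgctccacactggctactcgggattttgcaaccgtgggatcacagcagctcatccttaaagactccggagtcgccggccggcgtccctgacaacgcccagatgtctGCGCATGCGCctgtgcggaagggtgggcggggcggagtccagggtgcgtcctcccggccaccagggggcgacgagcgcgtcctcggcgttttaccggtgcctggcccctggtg
These windows lie at chr10:80406822-80407071 on the minus strand, chr16:37654369-37654618 on the minus strand, chr9:44920743-44920992 on the minus strand and chr4:24897833-24898082 on the plus strand. Ndufb4 held 3 NRF1 matches and Ndufaf4 held 1, and Uqcr11 and Atp5l held 1 GABPA match each, so both letters occurred in a promoter of a gene that rose and in one of a gene that fell. A match describes letters in the window and not a bound site.

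Transcripts of every complex were higher in activated than in naive T cells. The summed value of all 93 members was 2288 ± 415 (SD, n = 3) in naive cells and 3447 ± 118, 4094 ± 149, 4023 ± 225 and 4166 ± 144 at 0.01, 0.1, 1.0 and 10 µM. For each of the 5 complexes, every activated library lay above every naive library. Against naive cells the mean sum at 10 µM was 1.69 times as high for complex I, 2.22 times for complex II, 1.85 times for complex III, 1.53 times for complex IV and 2.13 times for complex V. As a share of named reads, members made up 0.934% to 1.51% of naive libraries and a mean of 2.74%, 3.04%, 3.04% and 3.27% at the rising doses. These sums are given as descriptions, with no test.

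**Figure D1:**
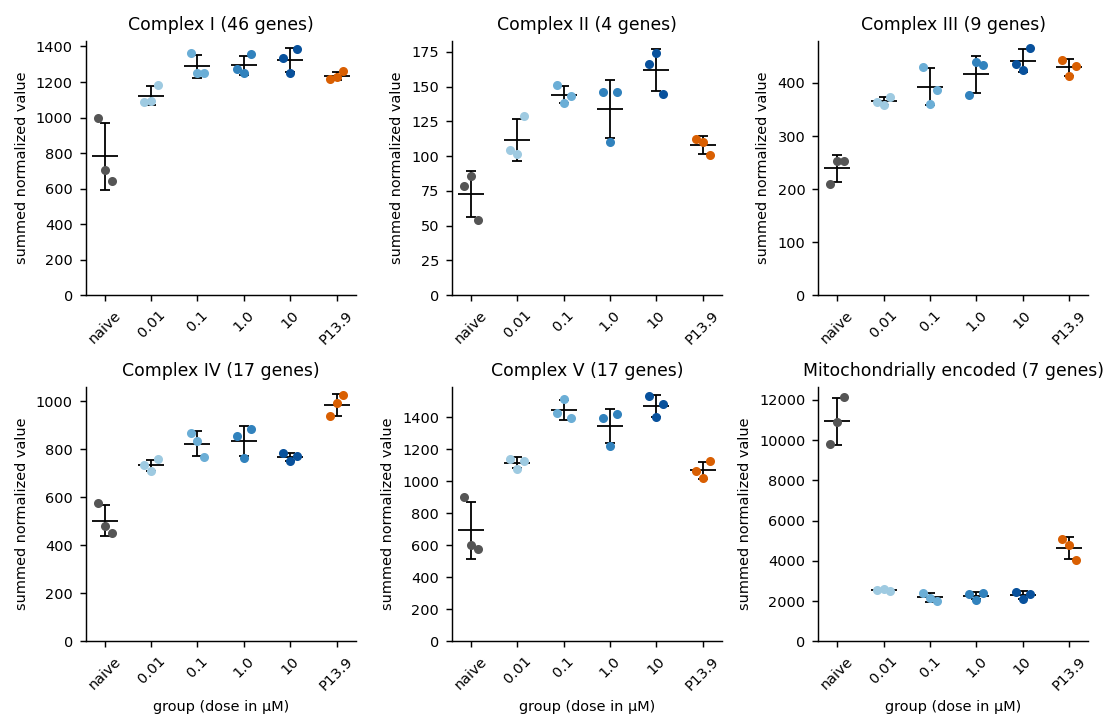
Summed normalized value (y axis) of the members of each complex, and of 7 mitochondrially encoded genes, by group (x axis); points are libraries, 3 a group, and bars are the mean ± SD. In the panels of complexes I to V all 12 activated libraries lie above the 3 naive libraries, and in the last panel the naive libraries lie between 9784 and 12138 and the activated ones between 1980 and 2582.

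Each gene was tested with limma on log2(value + 1), and calls were made at an adjusted p below 0.05, adjusted over the 7264 genes of the fit. Of the 93 members 86 passed the filter on low values. Members with at most 3 naive reads in all, such as Uqcr11, Ndufb4, Ndufv1, Ndufs8 and Ndufaf3, could pass only with activated libraries included. The filter therefore favoured their calls as rising. Between naive cells and the mean of the 4 doses 58 of these 86 rose and 4 fell, where 29% of all genes tested rose and 34.3% fell. The median log2 change was 1.06 over the members tested and -0.02 over all genes tested, and the median ratio of group means was 1.89. The 2 medians were 1.73 and 0.36 with edgeR, 1.65 and 0.29 with DESeq2 and 1.63 and 0.48 with CPM. No overlap between the 12 activated and 3 naive libraries was seen for 38 members, 36 of them called as rising, and for 37.6% of all genes. In each comparison the members named for the largest changes were picked among those without overlap. Their lack of overlap is therefore a condition of the choice and not added support. Set against 1.0 µM alone, whose sample numbers in the labels run on from those of the naive libraries, 53 members rose and 2 fell, where 23.3% and 31.4% of all genes did.

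**Figure D2:**
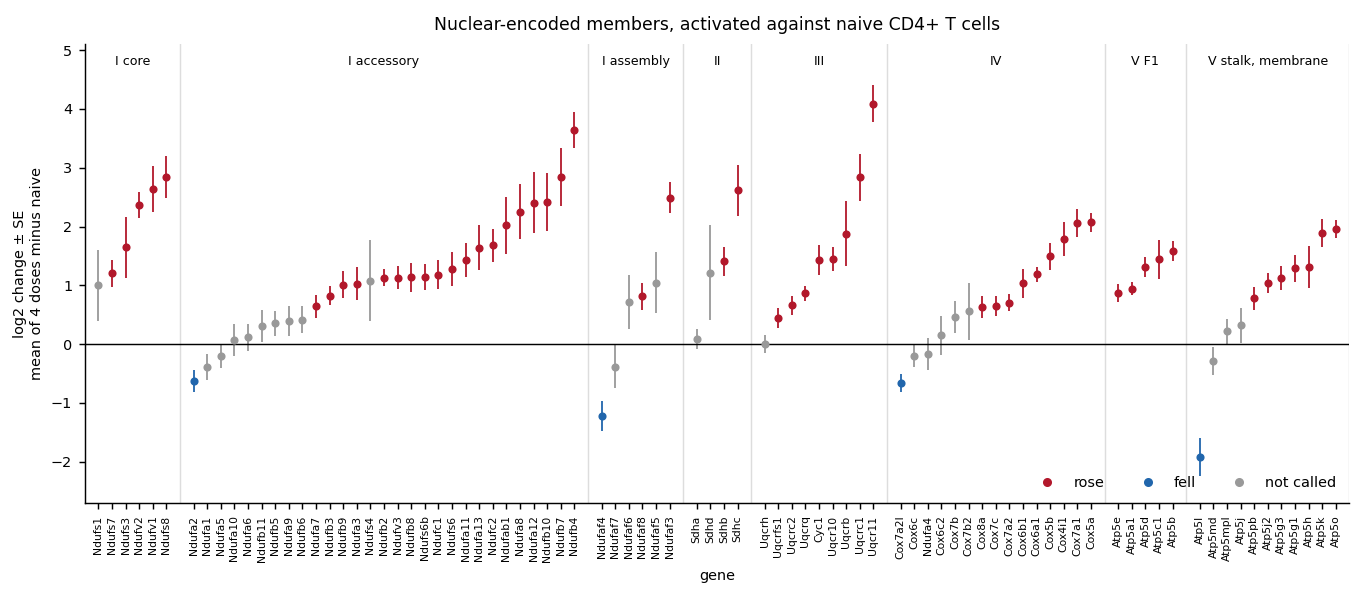
Log2 change on the log2(value + 1) scale, mean of the 4 doses minus naive (y axis), of 85 of the members tested, grouped by complex and ordered by size (x axis); points are limma estimates, bars are ± SE, from 12 activated and 3 naive libraries. Red marks 57 members that rose, blue the 4 that fell and grey the 24 not called; Uqcr11 lies highest at 4.09 and Atp5l lowest at -1.92.

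In complex I, 27 of 42 tested members rose and 2 fell. Of the 7 core subunits, those that carry the redox centres and the NADH site, 6 rose. Ndufv2, a core iron-sulfur subunit, had values of 6.55, 3.90 and 6.50 in the naive libraries and a lowest, median and highest value of 18.4, 34.6 and 45.2 over the 12 activated libraries. The groups did not overlap, and its log2 change was 2.36 ± 0.21 (SE, adjusted p = 1.8e-07). Its naive values of 6.55 and 3.90 are 1 read each. Ndufv1, which binds NADH, and Ndufs8 rested on 2 and 1 reads in all naive libraries together. Their ratios of reads per unit of depth were 7.56 (exact 95% counting interval 2.08 to 62.5) and 8.35 (1.49 to 331). Ndufs1, the largest iron-sulfur subunit, was not called: it had no read in naive library 1 and 23.4 in naive library 2.

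Accessory subunits surround that core, and 19 of 29 tested rose. Ndufb4 had 0, 0 and 2.17 in the naive libraries, which is 1 read, and a median of 17.5 (highest 23.1) in the activated ones, and the ratio of reads was 14.8 (2.66 to 587). Ndufb7 went from 0, 11.7 and 8.66 to 24.3 to 47.1 (2.84 ± 0.50, adjusted p = 0.00014), Ndufc2 from 19.7, 23.4 and 6.50 to 31.1 to 62.5 (1.68 ± 0.28, adjusted p = 8.1e-05) and Ndufb2 from 19.7, 15.6 and 13.0 to 30.1 to 40.6 (1.13 ± 0.15, adjusted p = 7.6e-06). In none of these genes did an activated library reach down to a naive one. Without naive library 1, which had no read of Ndufb7, that gene's change was 1.69. Ndufa2 was the accessory subunit that fell, from 65.5, 82.0 and 67.1 to a median of 45.7 (27.0 to 70.9), a change of -0.63 ± 0.19 (adjusted p = 0.0094). Its groups overlapped through the library B of 1.0 µM, and with edgeR on the recovered reads the change was 0.06 (adjusted p = 0.83), so the direction is not settled. The 6 assembly factors tested were mixed. Ndufaf3 had no naive read and 2.02 to 6.97 in activated cells, at least 1.34 times the level that a floor of 3 reads over the naive group allows. Ndufaf3 passed the filter through activated libraries alone, so the filter favoured its call. Ndufaf8 rose by 0.81 ± 0.22 (adjusted p = 0.0053), and Ndufaf4 fell from 26.2, 23.4 and 17.3 to 3.49 to 17.2 (-1.22 ± 0.26, adjusted p = 0.00077). With edgeR that fall was -0.53 (adjusted p = 0.24).

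Of the 4 genes of complex II 2 rose. Sdhb, its iron-sulfur subunit, had 45.9, 23.4 and 13.0 in naive cells and 39.4 to 80.5 after activation (1.41 ± 0.24, adjusted p = 0.00014). Sdhc, a membrane anchor that binds quinone and haem, rose from 0, 7.81 and 4.33 to 14.1 to 27.1 without overlap (2.61 ± 0.43, adjusted p = 8.4e-05, and 1.69 without naive library 1). Sdha, the flavoprotein that oxidises succinate, was not called: it had 32.8, 35.1 and 19.5 in naive cells and a median of 29.6 (26.1 to 35.3) after activation, a change of 0.08 ± 0.17 (adjusted p = 0.68). The other membrane anchor, Sdhd, was erratic, at 0, 19.5 and 17.3 in naive cells and from 1.00 to 31.2 in activated ones, and was not called (1.22 ± 0.81, adjusted p = 0.20). The difference between Sdhb and Sdha in their response was not tested.

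Of the 9 genes of complex III 8 rose. Uqcr11, a small subunit, had the largest change of all members, from 1 read in the 3 naive libraries to 17.8 to 34.1 in the activated ones, a ratio of reads of 21.1 (3.78 to 835). It could pass the filter only with the activated libraries, where it is high, so the filter favoured its call. Uqcrc1, a large core-side subunit, had 0, 3.90 and 6.50 in naive cells and 15.2 to 29.8 in activated cells (2.84 ± 0.40, adjusted p = 1.7e-05). Cyc1, the cytochrome c1 that hands electrons to cytochrome c, went from 13.1, 3.90 and 10.8 to 19.5 to 31.5 (1.43 ± 0.25, adjusted p = 0.00014). Neither gene's groups overlapped. Uqcr10 rose by 1.45 ± 0.20, Uqcrq by 0.86 ± 0.13, Uqcrc2 by 0.66 ± 0.17, Uqcrb by 1.88 ± 0.56 and Uqcrfs1, the Rieske iron-sulfur protein, by 0.45 ± 0.17. The change of Uqcrb was 0.77 without naive library 1 and 2.95 without naive library 3. The calls of Uqcrb and Uqcrfs1 were lost without naive library 1 (adjusted p = 0.068 and 0.073) and that of Uqcrfs1 also without naive library 3 (adjusted p = 0.15). Uqcrh, the hinge protein, was the member of complex III with no change in its estimate: 59.0, 89.8 and 95.3 in naive cells and a median of 81.1 (68.1 to 101) after activation, a log2 change of 0.00 ± 0.15.

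Complex IV had the lowest median change of the complexes, 0.65 over its 15 tested members, of which 9 rose and 1 fell. Cox5a, Cox4i1 and Cox6a1 encode subunits that surround the catalytic core. Cox5a had 32.8, 23.4 and 21.7 in naive cells and 77.9 to 142 in activated cells (2.07 ± 0.16, adjusted p = 2.2e-08), Cox4i1 had 6.55, 27.3 and 23.8 and then 38.4 to 75.9 (1.79 ± 0.29, adjusted p = 6.4e-05), and Cox6a1 had 59.0, 46.8 and 39.0 and then at least 75.3, with a median of 121 (1.18 ± 0.13, adjusted p = 1.4e-06). All activated libraries exceeded all naive libraries in each of these genes. Without naive library 1 the change of Cox4i1 was 1.19. Cox7a1, the heart and muscle form of subunit 7a, had no naive read and 1.03 to 7.19 in activated cells, at least 1.13 times the level that the floor of 3 naive reads allows. It passed the filter through its 0.01 µM libraries alone. Cox6b1, Cox7a2, Cox7c and Cox8a rose by 1.03 ± 0.25, 0.71 ± 0.14, 0.65 ± 0.18 and 0.64 ± 0.18. The call of Cox8a was lost without naive library 2 or without naive library 3 (largest adjusted p = 0.072), and without naive library 1 the changes of Cox6b1 and Cox8a were 1.58 and 0.99. Cox7a2l, which links complexes III and IV into supercomplexes, fell from 78.6, 66.4 and 117 to a median of 53.1 (40.3 to 72.4), a change of -0.66 ± 0.16 (adjusted p = 0.0018), and the change was -0.43 without naive library 3 and -0.12 with edgeR (adjusted p = 0.63). Cox6c, Cox6c2, Cox7b, Cox7b2 and Ndufa4 were not called. Cox6c2, Ndufs6b and Ndufa11b are annotated as pseudogenes close in sequence to Cox6c, Ndufs6 and Ndufa11, and how the counting divided reads within these pairs is not given in the sources used here.

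All 5 genes of the catalytic F1 head of ATP synthase rose. Atp5b, the beta subunit that makes ATP, had 65.5, 42.9 and 28.2 in naive cells and 94.6 to 186 after activation (1.58 ± 0.17, adjusted p = 1.4e-06), and Atp5a1, the alpha subunit, had 98.3, 97.6 and 132 and then 159 to 270 (0.94 ± 0.11, adjusted p = 4e-06). Neither gene's groups overlapped. In the stalk and membrane part 7 of 11 tested members rose. Atp5o, the stalk subunit that holds the head still, had naive values of 13.1, 11.7 and 13.0 and reached 33.8 to 71.5 (1.96 ± 0.15, adjusted p = 2.3e-08). In naive libraries 1, 2 and 3 a read was worth 6.55, 3.90 and 2.17. These naive values are thus a few reads each, and their closeness is no measure of precision. Atp5k went from 26.2, 7.81 and 13.0 to 45.8 to 80.2 (1.88 ± 0.24, adjusted p = 5.9e-06). The 3 genes that encode the same c-ring subunit differed in what could be measured: Atp5g3 had 334, 187 and 113 in naive cells and 283 to 500 in activated ones (1.12 ± 0.21, adjusted p = 0.00023, and 0.74 without naive library 3), Atp5g1 rose by 1.29 ± 0.23 (adjusted p = 0.00016), and Atp5g2, with 1 naive read, was below the filter. Atp5l, a membrane subunit, went the other way in every library, from 13.1, 7.81 and 19.5 to 1.34 to 5.06 (-1.92 ± 0.32, adjusted p = 0.0001), and its fall was called with edgeR too (-1.80, adjusted p = 0.0046). All 3 naive libraries reached the filter's value of 5, and activated ones reached at most 5.06, so the filter favoured a difference. Without a filter the adjusted p of Atp5l by limma was 0.00021. Atp5md and Atp5mpl, small membrane subunits, were not called (-0.29 ± 0.24 and 0.21 ± 0.22).

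The dose comparison sets the weakest against the stronger signals. The sum of all members was lowest at 0.01 µM, and the mean sum at 10 µM was 1.21 times that at 0.01 µM. By complex the ratio was 1.18 for complex I, 1.45 for II, 1.21 for III, 1.05 for IV and 1.32 for V. Within complex I it was 1.32 for the core, 1.17 for the accessory subunits and 1.08 for the assembly factors, and within ATP synthase 1.54 for the F1 head and 1.20 for the stalk and membrane part. Among the 4 doses 53 of the 93 members had their lowest mean at 0.01 µM, including all 5 of the F1 head. In complex IV 9 of 17 were lowest at 0.01 µM and 7 at 10 µM. Complex IV accordingly made up 21.3% ± 0.088 of member reads at 0.01 µM and 18.4% ± 0.320 at 10 µM (SD, n = 3), while complex V made up 32.3% ± 0.850 and 35.3% ± 0.671, with no overlap between these doses in either case.

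Between 0.01 and 10 µM limma called 5 members as rising and 3 as falling, where 1.9% of all genes rose and 6.25% fell. With quantile normalization 3 members rose and 4 fell (4.28% and 7.35% of all genes), and of the 5 rising members only Ndufv3 was then called (the other adjusted p-values were 0.10 to 0.24). Over the members tested 62 of 86 had a change above 0, against 46.8% of all genes, and the median was 0.24 against -0.03. Atp5b had 108, 94.6 and 96.8 at 0.01 µM and 183, 186 and 174 at 10 µM (0.85 ± 0.22, adjusted p = 0.026), and the means at 0.1 and 1.0 µM were 144 and 114. Atp5a1 had 174, 159 and 160 and then 270, 255 and 249 (0.65 ± 0.14, adjusted p = 0.011). Neither gene's doses overlapped, which was so for 52 of the 86 members and for 49.8% of all genes. Uqcrfs1 rose from 58.3, 59.1 and 62.7 to 109, 94.2 and 96.9 (0.72 ± 0.21, adjusted p = 0.045). Ndufv3, an accessory subunit near the NADH site, was at 19.3, 25.0 and 23.6 and then at 52.8, 39.0 and 44.4 (0.97 ± 0.26, adjusted p = 0.030). Its means at 0.1 and 1.0 µM, 48.1 and 53.2, were as high as that at 10 µM. Cox6a1 showed the same step, with means of 77.4 at 0.01 µM and 127, 127 and 116 above it (0.57 ± 0.16 for 10 against 0.01 µM, adjusted p = 0.043).

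The sample numbers in the labels fall in 2 runs, 10 and 0.1 µM in one and all other groups in the other, so 10 against 0.01 µM crosses them. Within a run, at 1.0 against 0.01 µM, Ndufv3 rose by 1.20 ± 0.26 (adjusted p = 0.016) and Cox6a1 by 0.70 ± 0.16 (adjusted p = 0.026), and no member fell. Both calls were lost in 5 of the 6 fits that left out 1 library, all but that without library B of 1.0 µM (largest adjusted p = 0.098 and 0.14). There 1.64% of all genes rose and 2.66% fell. Quantile normalization called 1 rise and 2 falls among members in this comparison (2.9% and 4.17% of all genes), and CPM 1 of each (1.43% and 3.95%). Between 0.1 and 10 µM no member was called by limma, edgeR or DESeq2, none had an unadjusted p below 0.05 in limma, and 0.0138% and 0.0826% of all genes rose and fell. The member sums of these doses differed by less than their SDs.

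**Figure D3:**
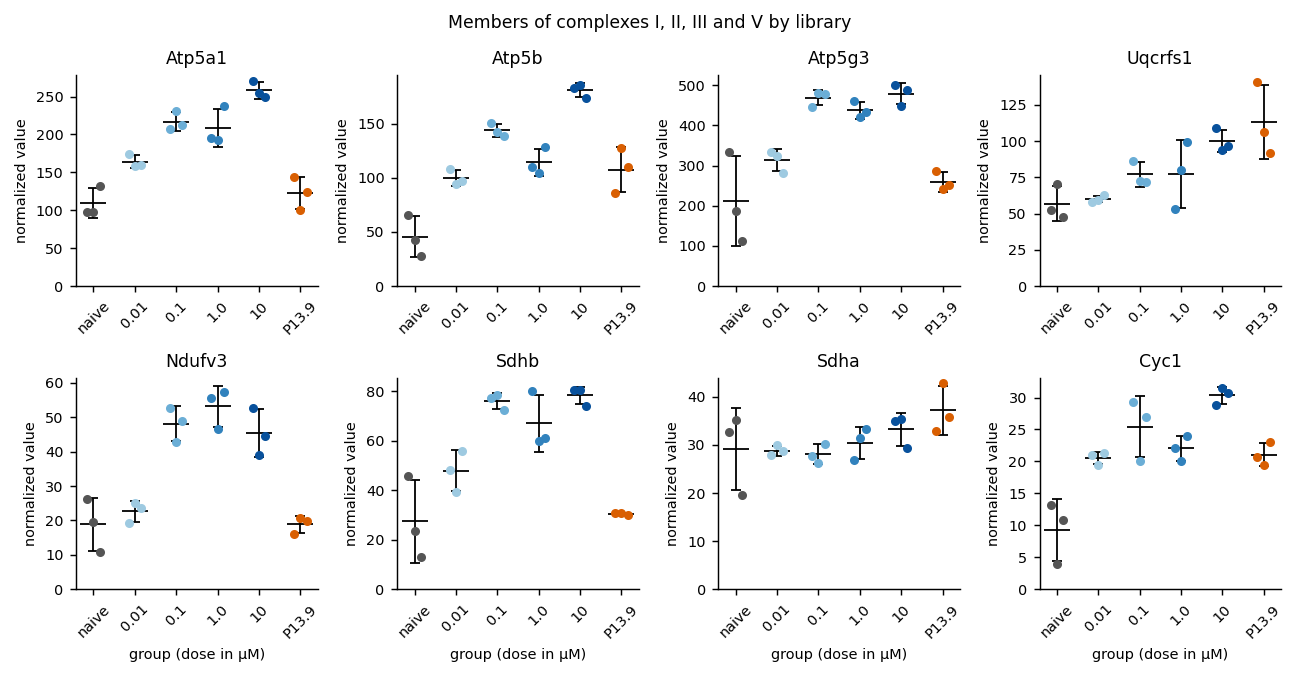
Normalized value (y axis) of 8 members of complexes I, II, III and V by group (x axis); points are libraries, 3 a group, and bars are the mean ± SD. Atp5a1 and Atp5b are highest at 10 µM, Ndufv3 lies between 39.0 and 57.5 in every library above 0.01 µM, and Sdha stays between 26.1 and 35.3 in all activated libraries.

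The rising calls lay close to the threshold. With each of the 6 libraries compared left out in turn, at most 1 rising member was still called, and Atp5b, Uqcrfs1, Ndufv3 and Cox6a1 each lost the call in all 6 (largest adjusted p = 0.12, 0.17, 0.14 and 0.16). Atp5a1 lost it without library B or C of 0.01 µM or library A of 10 µM (largest adjusted p = 0.064). More were called in other fits: 25 members rose and 6 fell in a fit of the 12 dose libraries alone (10.9% and 16% of all genes), and 29 rose and 7 fell with edgeR (15.5% and 19.3% of all genes). By edgeR the rising members included 5 of the 7 core subunits of complex I, Sdhb (0.77, adjusted p = 0.001), Uqcrc1 (0.84, adjusted p = 0.0011), Cyc1 (0.61, adjusted p = 0.013), Cox5a (0.59, adjusted p = 0.007), Atp5d and Atp5g3 (0.66, adjusted p = 0.0044). Sdhb had 48.2, 39.4 and 56.0 at 0.01 µM and 80.5, 80.5 and 74.3 at 10 µM, and by limma was not called (0.71 ± 0.31, adjusted p = 0.19).

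All 3 members that fell between 0.01 and 10 µM belong to complex IV. Cox7b2, a form of subunit 7b known from testis, had 13.6, 15.8 and 14.8 at 0.01 µM, 3.05, 1.74 and 2.90 at 0.1 µM, 4.72, 1.00 and 2.77 at 1.0 µM and 0.282, 2.06 and 0.192 at 10 µM. The fall from 0.01 to 10 µM was -3.23 ± 0.61 (adjusted p = 0.0043). The values 0.282 and 0.192 at 10 µM are 1 read each. Among the doses Cox7b2 reached 5 only at 0.01 µM, where it is high, so the filter favoured a difference. It was still called with any one of those libraries left out (largest adjusted p = 0.028) and without a filter (adjusted p = 0.0077). Cox7a1 went from 6.36, 7.19 and 6.41 to 2.26, 1.03 and 1.53 (-1.58 ± 0.30, adjusted p = 0.0046). Since Cox7a1 was tested only through the libraries at 0.01 µM, where it is high, its call was bound to a difference. Without a filter its adjusted p was 0.019, and without any one of those libraries it was not tested. Cox6c fell from 108, 88.6 and 72.2 to 38.4, 33.9 and 44.2 (-1.18 ± 0.25, adjusted p = 0.0099). None of these genes' libraries at 10 µM reached a library at 0.01 µM. Cox6c lost its call without library A or B of 0.01 µM or library B of 10 µM (largest adjusted p = 0.067).

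These genes were all higher in the P13.9 cells than at 10 µM. Cox7b2 had 26.8, 26.7 and 25.2 in P13.9, Cox7a1 had 13.8 to 15.9, and Cox6c had 89.0, 89.6 and 100. For Cox7b2 and Cox7a1 these values also lay above every library at 0.01 µM, while for Cox6c they overlapped with that dose. Fibroblast markers moved with the dose in the same way: 10 of the 11 listed were in the table and all 10 were detected at 0.01 µM, where they summed to 224 to 299, against 75.0 to 106 at 0.1 µM, 59.9 to 84.5 at 1.0 µM, 30.5 to 39.1 at 10 µM and 680 to 790 in P13.9. Bgn had no read from 0.1 µM up, though it was detected in naive cells, and Col1a1 and Axl had none in naive cells. The markers did not all go one way. Against naive cells 7 of the 9 tested were higher in P13.9 and 1 was lower, with a lowest log2 change of -3.11 (29.9% and 29.1% of all genes were higher and lower). In naive cells the 10 markers summed to 52.0 to 78.6, above the range at 10 µM. As a share of the P13.9 level, the median of these markers was 47.9% ± 6.09 at 0.01 µM and 2.46% ± 0.704 at 10 µM (SD, n = 3), and genes with no naive read gave 23.7% ± 3.03 and 2.76% ± 0.508. After the first of these shares of the P13.9 mean was subtracted from each activated library, Cox7a1 and Cox7b2 no longer passed the filter, the change of Cox6c was -0.86 (adjusted p = 0.088), and 24 of 81 members rose and none fell (16.9% and 5.72% of all genes). The 5 rising members kept their calls, with changes from 0.57 for Atp5a1 to 3.68 for Uqcrfs1. Values that fell below 0 on subtraction were set to 0. Uqcrfs1 in P13.9 was close to its level at 10 µM (log2 difference 0.16), so this subtraction took most of its value at 0.01 µM. Its change was 0.72 without subtraction and 1.25 with the second share, so the size of 3.68 rests on small remainders. After the second, Cox6c was at -1.12 (adjusted p = 0.020) and Cox7b2 at -3.12 (adjusted p = 0.0027), and 8 of 85 members rose and 2 fell (4.72% and 4.16% of all genes).

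**Figure D4:**
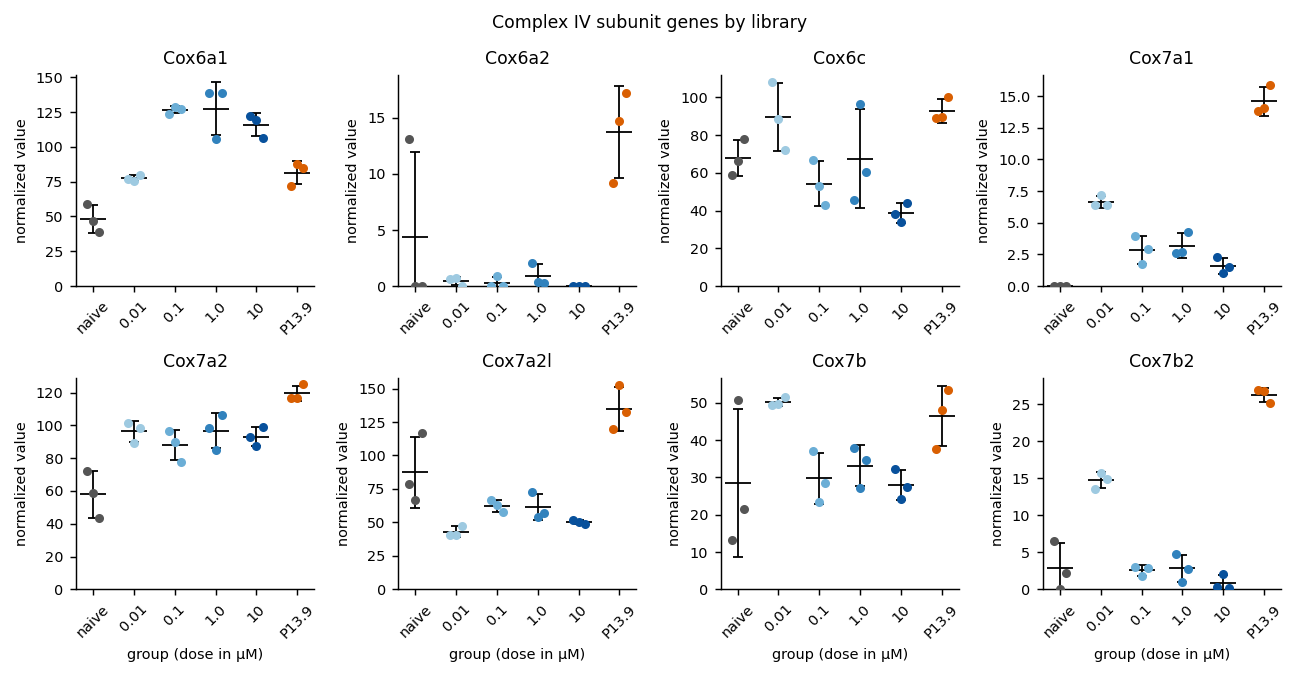
Normalized value (y axis) of 8 complex IV genes by group (x axis); points are libraries, 3 a group, and bars are the mean ± SD. Cox7a1, Cox7b2 and Cox6a2 are highest in P13.9, Cox7a1 and Cox7b2 are next highest at 0.01 µM, and Cox6a1 runs the other way, lower at 0.01 µM than at any higher dose.

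In complex IV, P13.9 had higher levels of 6 of the 16 tested genes than T cells at 10 µM and lower levels of 3, with a median log2 difference of 0.59. Over all complexes, 12 of 87 tested members were higher in P13.9 and 16 lower, where 26.4% of all genes were higher and 15.6% lower. The median of all genes was 0.22 there and -0.04 with edgeR. By edgeR 8 members were higher and 41 lower (28% and 30.3% of all genes), and with quantile normalization 9 and 25 were (22.4% and 24.2%). Cox6a2, the muscle form of subunit 6a, had 9.20, 14.7 and 17.2 in P13.9 and no read in any library at 10 µM, so it was at least 56.1-fold higher by a floor of 3 reads over the group. It counts among the 6 higher genes of complex IV. Since it passed the filter only with the P13.9 libraries included, where it is high, the filter favoured its call. Cox7b2 was higher by 4.03 ± 0.58 (adjusted p = 1.9e-05), Cox7a2l by 1.39 ± 0.19 (adjusted p = 1.1e-05) Cox6c by 1.24 ± 0.24 (adjusted p = 0.00039) and Cox8a by 0.74 ± 0.22 (adjusted p = 0.011). Cox7a2l had 120, 152 and 132 in P13.9, against 52.0, 50.4 and 49.0 at 10 µM, and its mean in P13.9 was the highest of all 6 groups. Cox7a1 had a mean of 14.6 in P13.9 and 1.61 at 10 µM (adjusted p = 4.2e-06). Cox5b, Cox5a and Cox6a1 were lower in P13.9 by 1.74, 0.98 and 0.51 on the log2 scale. Cox5b had 9.20, 6.02 and 5.30 in P13.9 and 26.8, 25.7 and 21.6 at 10 µM.

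Outside complex IV, the members lower in P13.9 were led by Ndufa3 (-1.65 ± 0.36), Sdhb (-1.33 ± 0.29), Ndufv3 (-1.22 ± 0.25), Atp5a1 (-1.08 ± 0.16) and Atp5g3 (-0.88 ± 0.24), and those higher by Ndufa7 (1.18 ± 0.23), Atp5mpl (1.15 ± 0.26) and Atp5md (1.02 ± 0.29). Sdhb was nearly constant in P13.9 at 30.7, 30.8 and 30.0. Against naive cells, 47 of 87 members were higher in P13.9 and 2 lower, where 29.9% and 29.1% of all genes were. The lower ones were Atp5l (-1.72 ± 0.44) and Ndufa2 (-1.29 ± 0.24). The naive group had the lowest mean of all 6 groups for 63 of the 93 members and P13.9 the highest for 33.

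The mitochondrially encoded subunits went the other way. Of the 13 such genes 7 were in the table, and the other 6 were not analysed here. All 7 fell from naive to activated cells, with a median log2 change of -2.06, where 34.3% of all genes tested fell. mt-Co1, the catalytic subunit of complex IV, had mean values of 1146 in naive cells and 128, 164, 148 and 177 at the rising doses (-2.91 ± 0.14, adjusted p = 1.9e-10). mt-Cytb, the haem protein of complex III, fell by 2.89 on the log2 scale and mt-Nd1 of complex I fell by 1.92. The summed value of the 7 genes per summed value of the 93 nuclear members was 3.55, 5.12 and 6.14 in the naive libraries and 0.502 to 0.773 in the activated ones, so the groups lay far apart. P13.9 stood between, at 1.21 ± 0.167 (SD, n = 3). As a share of named reads, the 7 genes made up 5.45% of naive, 1.62% to 2.02% of activated and 2.98% of P13.9 libraries by group mean, so the fall was also present without the authors' scaling. Across doses mt-Nd4 and mt-Cytb were lower at 10 than at 0.01 µM (-0.65 ± 0.16 and -0.60 ± 0.13, adjusted p = 0.019 and 0.011), and the other 5 were not called. By limma 1.9% of all genes rose and 6.25% fell between these doses. Of the 7 genes 5 had a change above 0 in limma, and edgeR called 2 as rising and 2 as falling, where 15.5% and 19.3% of all genes did.

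**Figure D5:**
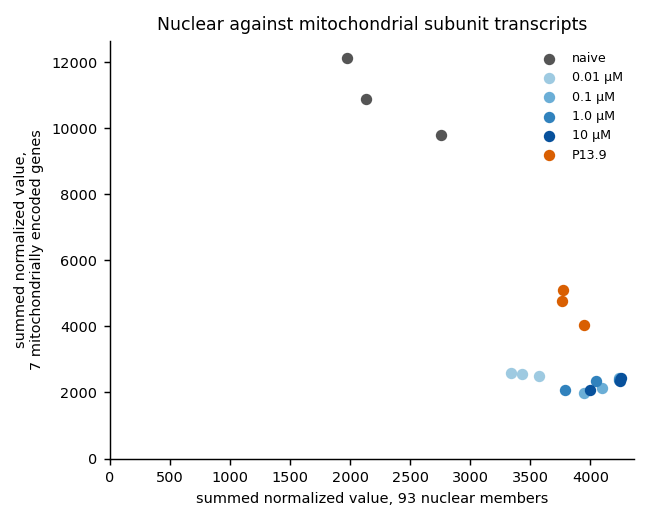
Summed normalized value of 7 mitochondrially encoded genes (y axis) against that of the 93 nuclear members (x axis), 1 point a library, coloured by group. The 3 naive libraries lie at the upper left, the 12 activated ones at the lower right with nuclear sums from 3338 to 4252, and P13.9 lies between them in the mitochondrial sum.

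Other genes of the pathway were read from lists. Among electron carriers and partners of ATP synthase 8 of 11 tested rose on activation and 1 fell, where 29% and 34.3% of all genes did. Atpif1, the inhibitor of ATP synthase, had 13.1, 15.6 and 15.2 in naive cells and a mean of 71.2 already at 0.01 µM (2.22 ± 0.14, adjusted p = 2.8e-09). Vdac1, the main channel of the outer membrane, rose by 3.02 ± 0.59, Etfb, an electron transfer flavoprotein, by 2.13 ± 0.34, and Slc25a4, an ADP/ATP carrier, by 1.41 ± 0.23. Coq7, an enzyme of quinone synthesis, fell by 0.65 on the log2 scale. Assembly factors outside the name rule were split, with 9 of 29 tested rising and 6 falling, near the 29% and 34.3% of all genes that did. Coa3 and Lrpprc rose by 2.99 ± 0.49 and 2.20 ± 0.61, while Ttc19 and Bcs1l, both of complex III assembly, and Sco1, a copper chaperone of complex IV, fell by 2.70, 2.20 and 2.06. Across doses Chchd10 rose from 9.88, 10.9 and 13.8 at 0.01 µM to 58.5, 48.6 and 57.8 at 10 µM (2.17 ± 0.33, adjusted p = 0.00081), with means of 26.5 and 23.7 at 0.1 and 1.0 µM, and Slc25a3, the phosphate carrier, rose by 0.58 ± 0.12 (adjusted p = 0.0093).

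Of 10 tested regulators of mitochondrial biogenesis 2 rose and 3 fell on activation, close to the shares of all genes (29% and 34.3%). Esrra, an estrogen-related receptor that acts on respiratory genes, had no naive read and means of 2.93 to 5.13 in activated cells. Gabpb1, the partner of GABPA, went from 45.9, 11.7 and 41.1 to 2.61 to 7.06 in the activated libraries (-2.28 ± 0.35, adjusted p = 4.3e-05), Yy1 fell by 1.72 and Polg, the mitochondrial DNA polymerase, by 2.01. Nrf1 and Gabpa themselves were not called (0.49 ± 0.60 and -0.59 ± 0.29), nor was Tfam, which packages mitochondrial DNA (-0.28 ± 0.26).

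All 93 members matched a RefSeq symbol of GRCm38.p6, on 19 chromosomes, and none lies on the mitochondrial genome. By position 29 of them overlap another annotated gene, 15 of them a protein-coding one, among them Atp5a1, Uqcrq, Ndufa2 and Cox6a2. The strand setting of the counting is not given in the sources used here, so reads of such neighbours may not be separated. Members not tested in T cells were those with few reads. Cox6b2, a testis form of subunit 6b, had no read in naive cells or P13.9 and at most 1.69 in an activated library. Ndufaf1, Ndufaf2 and Ndufs5 had 2, 1 and 2 naive reads in all, with ratios of activated to naive reads of 0.589 (0.155 to 4.99), 2.75 (0.484 to 109) and 0.905 (0.243 to 7.60), so no difference was detectable at this depth. These counting intervals cover counting error only.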

How the data were processed

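Messenger RNA of 18 libraries in 6 groups of 3 was sequenced from 3′ ends with the Lexogen QuantSeq kit, per the labels' protocols. In the deposited table each value is a signal: a read count that the authors scaled by DESeq2's median-of-ratios size factors, per the file and the submitters' processing notes. Those notes list mm10, DESeq2 (version not given), HTSeq 0.9.1, STAR 2.6.1d and FastQC 0.11.8. Whole reads were recovered from the steps of the values, and of 284544 values 1 was not whole within 1e-05 reads. Unnamed features, which held 12.4% to 15.6% of reads in naive libraries and 1.94% to 5.36% in the others, were left out.

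The main test was limma 3.58.1 in R 4.3.3 (lmFit, eBayes with trend) on log2(value + 1), which understates changes of low genes, over genes that reached 5 in 3 or more libraries. Fits held 15 libraries and 7264 genes for T cells, and 18 libraries and 8179 genes where P13.9 was compared. The Benjamini-Hochberg adjustment ran over every gene of a comparison, and the fit was tested on simulated data. edgeR 4.0.16 and DESeq2 1.42.0 on recovered reads were alternatives. Where a group had 1 to 3 reads, ratios of reads carry exact 95% intervals, and a group without reads was set to a floor of 3.

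Named in the text are, per complex and comparison, the called members that changed most among those without overlap whose mean reached 20, those against the direction of most, complex II, Cyc1, the Uqcr genes, isoform sets and the leading genes of other lists. Other members named, such as Ndufv1, Ndufs8, Ndufs1, Ndufb4, Cox6c, Cox7b2 and Atp5md, were chosen after their values were seen. The members, lists and tests were chosen with earlier results of these data known. The labels do not say that a letter pairs libraries, so no pairing was used in the main fit. Deviations of same-lettered dose libraries correlated at -0.197 to 0.200, and those of differently lettered ones at -0.251 to 0.290. The values of 1 member are not reported here.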

Additional observations from a re-analysis of the deposited data

How the results depend on the processing

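Naive libraries are shallow, which limits the precision of every member with few naive reads. Of 4009 recomputed values for 234 tested members and comparisons, 3713 kept their side of the threshold, and 140 lost and 154 gained a call. Among results with a call, 2 turned in sign, both for Ndufa2 against naive cells (0.065 with edgeR and 0.026 after subtracting the P13.9 share estimated from genes with no naive read). Direction was not compared where neither fit made a call. Such estimates could change sign, as for Sdhd between the 4 doses and naive cells (1.22, and -0.21 at the lowest without 1 library). CPM scaling and the fit of the 4 doses alone were chosen after seeing the data. For the mean of 4 doses against naive (58 rose, 4 fell) the counts were 40 and 2 where the mean had to reach 20, which left 55 members, 53 and 2 with array weights, 67 and 1 with edgeR, 66 and 1 with DESeq2 and 73 and 2 with CPM. For 1.0 µM against naive (53 and 2) they were 37 and 1, 49 and 1, 65 and 1, 62 and 1, and 66 and 1 under these, and 1 fell after either subtraction. Of all genes, 29.3% rose and 24.1% fell with edgeR for the 4 doses, 23% and 25.2% with DESeq2 and 42.6% and 25.4% with CPM. At 1.0 µM alone these shares were 27.6% and 22.8%, 21.8% and 23.1%, and 35.1% and 23.2%. Shares with array weights are not given here. Leaving out a library gave 55 to 60 rising and 3 to 5 falling members for the 4 doses, and 50 to 57 and 2 to 4 for 1.0 µM.

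For 10 against 0.01 µM (5 and 3) the counts were 3 and 3 without the filter, 5 and 1 with a mean of 20, 3 and 4 with quantile normalization, 41 and 11 with array weights, 29 and 7 with edgeR, 35 and 6 with DESeq2, 25 and 6 in the doses alone, 24 and 0 after the fibroblast-marker subtraction and 8 and 2 after the other. For 1.0 against 0.01 µM (2 and 0) they were 2 and 1 with a pseudocount of 4, 1 and 2 with quantile normalization, 21 and 8 with array weights, 14 and 5 with edgeR, 21 and 5 with DESeq2, 1 and 1 with CPM, 14 and 6 in the doses alone, and 21 and 0, and 3 and 1 after the subtractions. For 10 against 0.1 µM array weights called 1 fall, and no other setting called any. Without 1 library in turn, 0 to 1 rose and 1 to 3 fell, 0 to 2 and 0 to 1, and 0 and 0. The shares of all genes rising and falling between 0.01 and 10 µM were 15.5% and 19.3% with edgeR and 17.2% and 14.9% with DESeq2. In the doses alone they were 10.9% and 16%, and after the subtractions 16.9% and 5.72%, and 4.72% and 4.16%. For 1.0 against 0.01 µM they were 10.7% and 11.6%, 11.1% and 8.65%, and 8.3% and 10.6% in these fits. After the subtractions they were 14.3% and 3.2%, and 4.02% and 1.86%. Shares with array weights are not given here. The cause of the differences between settings was not tested.

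For P13.9 against naive (47 and 2) the counts were 32 and 1 with a mean of 20 and 46 and 1 with array weights, and 45 to 57 and 2 to 3 without 1 library. For P13.9 against 10 µM (12 and 16) they were 9 and 25 with quantile normalization, 21 and 28 with array weights, 8 and 41 with edgeR, 14 and 34 with DESeq2 and 8 and 25 with CPM, and 8 to 10 and 11 to 14 without 1 library. Of all genes 28% were higher and 30.3% lower in P13.9 with edgeR, 30.6% and 24.6% with DESeq2, and 22.6% and 21% with CPM.

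With the replicate block in the doses alone, 21 members rose and 6 fell between 0.01 and 10 µM, 13 rose and 4 fell between 0.01 and 1.0 µM, and 0 did between 0.1 and 10 µM. The shares of all genes in this fit are not given here. Deviations of same-letter libraries correlated between -0.197 and 0.200, and those of libraries with different letters between -0.251 and 0.290. With 3 libraries a group this cannot decide whether a letter stands for a shared mouse or culture. No paired analysis was possible for naive cells and P13.9 because their columns carry numbers and not letters.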
